A study of Homo sapiens with 6 samples.

Results

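Amino acids cross the plasma membrane and the lysosomal membrane through solute carriers, and the genes of 7 of these families were examined in A2780 cells, an established human ovarian cancer line. Genes were chosen by symbol alone, as members of SLC1, SLC3, SLC6, SLC7, SLC36, SLC38 or SLC43. This gave 52 of the 16571 gene symbols in the table, of which 7 were in SLC1, 2 in SLC3, 17 in SLC6, 10 in SLC7, 3 in SLC36, 10 in SLC38 and 3 in SLC43. RefSeq names 60 protein-coding human symbols of this form. The other 8 (SLC36A4, SLC38A11, SLC38A12, SLC6A5, SLC6A20, SLC7A3, SLC7A7 and SLC7A9) were not analysed here under these symbols, and older names were not searched for members. RNA-seq read counts were compared between 3 libraries of A2780 cells carrying pGIPZ-NC, a lentiviral control vector, and 3 libraries of A2780 cells carrying shUSP39, a short hairpin against the splicing factor USP39. Per the study's methods the hairpins were placed in the same pGIPZ vector and infected cells were kept under puromycin, so that both groups share the vector and the selection. Which of the study's hairpins the shUSP39 cells carried is not given in the labels, and every library came from 1 cell line. The comparison asks which transporter genes differ when USP39 is depleted.

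The families divide the work by substrate and by driving ion. SLC7 light chains exchange one amino acid for another and reach the surface only when bound to a heavy chain, SLC3A2 (4F2hc, CD98) or SLC3A1. SLC7A5 (LAT1) bound to SLC3A2 takes up leucine and other large neutral amino acids, and SLC7A11 (xCT) bound to the same heavy chain imports cystine in exchange for glutamate. SLC1A5 (ASCT2) and SLC38A2 (SNAT2) carry glutamine and other small neutral amino acids. In tumour cells these transporters supply leucine to the mTORC1 pathway, glutamine to the mitochondria and cysteine to glutathione synthesis.

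Total counts lay between 28294819 and 32939264 per library. Counts of shUSP39 replicates 2 and 3 were spread over more genes (15446 and 14890 with at least 1 count) than those of shUSP39 replicate 1 (12819) or of the pGIPZ-NC libraries (12662 to 12809). On log values, Pearson's r across genes was 0.988 to 0.990 within groups and 0.968 to 0.969 between them. The transcript of USP39 was not analysed here, and the knockdown could not be checked from these libraries. Of 7 serous ovarian carcinoma markers in the table, PAX8, EPCAM and CDH1 had a mean of at most 0.132 CPM (read counts normalised to the library size) in either group, and 3 reached 1 CPM in a library, led by KRT18. Together the 7 reached 22.2 to 25.4 CPM in the controls and 32.6 to 39.5 CPM with shUSP39, a sum carried by KRT18. KRT8 went the other way, with 28, 37 and 26 counts in the controls and 3, 0 and 0 with shUSP39 (adjusted p = 4.1e-05, edgeR). MUC16 had 6, 150 and 71 counts in shUSP39 replicates 1 to 3, and so was high in the replicates that had counts in more genes. All 5 fibroblast markers reached 1 CPM in a library, and together gave 1134 to 1198 CPM in the controls and 455 to 476 CPM with shUSP39, nearly all of it COL1A2. Of 4 leukocyte markers only CD68 reached 1 CPM (sum 9.08 to 12.1 CPM over all libraries), and 1 of 3 endothelial markers did so (sum 0.354 to 1.73 CPM). The part of these differences in the results below was not tested.

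A low-count filter left 31 of the 52 transporter genes for testing. With edgeR's quasi-likelihood test at a Benjamini-Hochberg adjusted p under 0.05 over all 10695 genes tested, 12 transporters were higher in shUSP39 cells, 2 were lower and 17 did not pass. These are 38.7% and 6.45% of those tested, where 16.1% of all genes tested were higher and 17.5% were lower. None of the 12 rose beyond 2-fold and both of the 2 fell beyond it, where 4.53% and 2.28% of all genes tested did. The DESeq2 Wald test also called 0 rises beyond 2-fold, and at an unadjusted edgeR p under 0.05 there was 1, SLC6A9. The median log2 fold change of the 31 was 0.20 (quartiles -0.17 and 0.42), beside 0.01 (quartiles -0.20 and 0.26) over all genes. Upper-quartile scaling left 12 higher and 2 lower transporters, while among all called genes the share that was higher went from 48.0% to 58.1%. In 14 of the 31, every shUSP39 library was above every pGIPZ-NC library, and in 5 every one was below, against 21.7% and 22.5% of all genes tested. These counts describe the genes that passed the filter, which a gene can do through 1 group alone, as SLC6A15 did. In bulk libraries, fewer cells with a transcript and less of it per cell cannot be told apart.

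**Figure D1:**
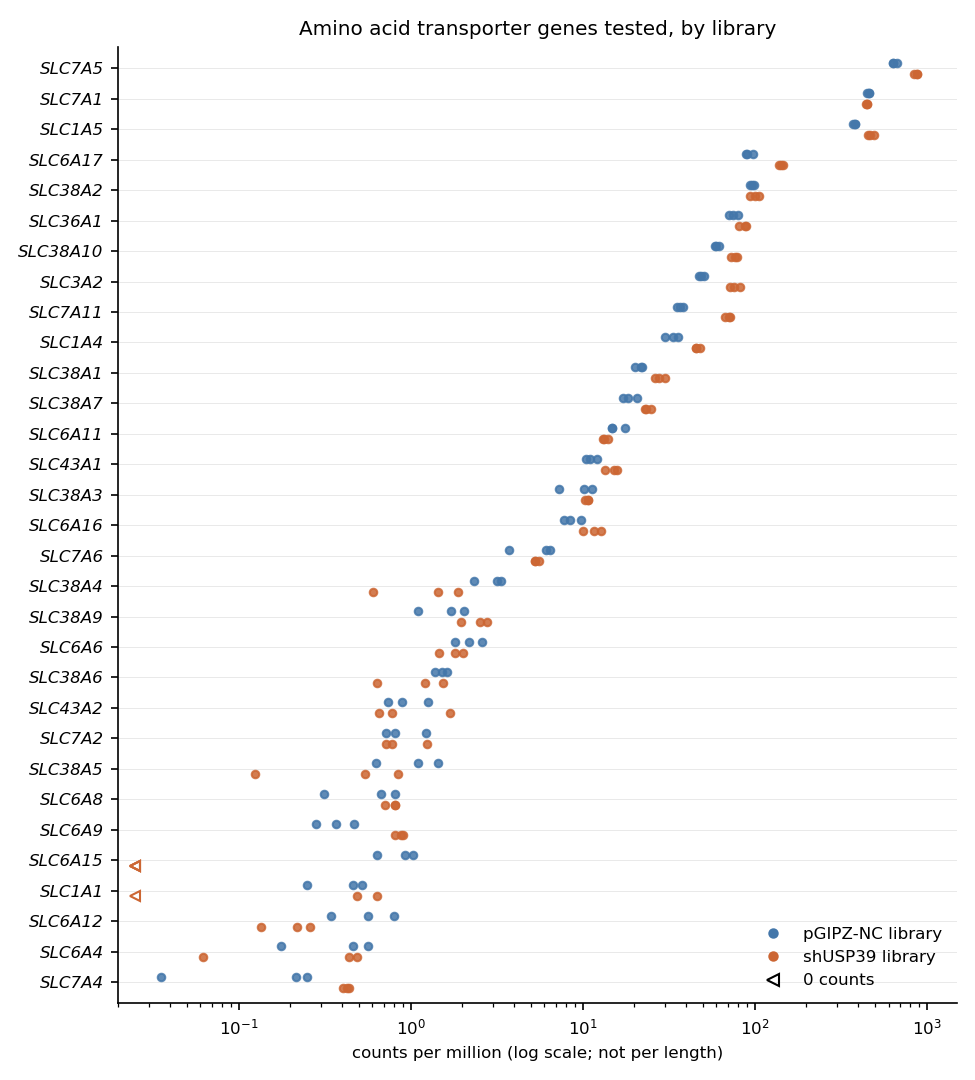
Level of the 31 tested amino acid transporter genes in each library. The x axis is CPM on a log scale, not divided by transcript length; each circle is 1 library, and open triangles at the left edge mark libraries with 0 counts. The 3 shUSP39 circles lie to the right of all 3 pGIPZ-NC circles for SLC7A5, SLC1A5, SLC6A17, SLC3A2 and SLC7A11, and all 3 shUSP39 libraries are at 0 for SLC6A15.

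Per kilobase of transcript, 3 genes stood above the rest in pGIPZ-NC cells. SLC7A5 had 142 ± 4.05 CPM per kb (SD, n = 3) and SLC1A5 had 132 ± 2.52 CPM per kb. SLC7A1 (CAT1), the main carrier of arginine and lysine, came next at 62.3 ± 0.542 CPM per kb. The lowest SLC7A5 library (139 CPM per kb) was above the highest SLC1A5 library (134), and each of these 3 was separate from its neighbours. SLC3A2 (21.0 ± 0.812) and SLC38A2 (20.1 ± 0.626) overlapped each other. SLC6A17 (14.4 ± 0.763) stood just above SLC38A10 (13.4 ± 0.360) and SLC36A1 (13.02 ± 0.771), which overlapped. SLC7A11 stood at 3.83 ± 0.147 CPM per kb. These levels use the longest coding transcript of GENCODE, and reads that transcripts of a gene share may be missing from the counts, which would lower genes with several rows more than genes with 1. SLC3A2 and SLC1A5 have 3 rows each and SLC7A5 has 1, so the order of SLC7A5 and SLC1A5 may rest on this. SLC7A5, SLC7A1 and SLC1A5 held 73.0% ± 0.229 of all reads of the 52 genes in pGIPZ-NC and 71.3% ± 0.576 in shUSP39 cells. Summed over the 52 genes, the controls had 2034 ± 30.8 CPM and the shUSP39 libraries 2508 ± 36.2 CPM (1.23-fold), and without those 3 genes the sums were 549 ± 3.71 and 719 ± 9.57 CPM (1.31-fold). No test was made on these sums.

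Among the transporters past the threshold, the largest rise was in SLC7A11, the cystine-importing light chain (chr4:139085251-139163503, minus strand, GRCh37). It had 38.4, 36.98 and 35.5 CPM in pGIPZ-NC replicates 1 to 3 and 72.1, 70.5 and 66.9 CPM in shUSP39 replicates 1 to 3. Every shUSP39 library was well above every control, and the log2 fold change was 0.92 (SE 0.066, adjusted p = 1.3e-11, edgeR). Exons of the gene share 865 bases with the antisense gene SLC7A11-AS1, and whether strand was used in counting is not stated.

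SLC3A2, the heavy chain that SLC7A11 and SLC7A5 both need (chr11:62623476-62656352, plus strand, GRCh37), rose as well. Its level was 51.1, 47.3 and 48.7 CPM in the controls and 75.4, 72.4 and 82.0 CPM in shUSP39 libraries. The groups did not overlap, with a log2 change of 0.64 (SE 0.064, adjusted p = 7.5e-09, edgeR). SLC7A5, the leucine exchanger (chr16:87863629-87903113, minus strand, GRCh37), had 634, 668 and 640 CPM in the controls and 847, 880 and 884 CPM in shUSP39 libraries. This gene of the highest level gained 1.34-fold, a log2 change of 0.43 (SE 0.033, adjusted p = 5.3e-11, edgeR). GENCODE lists the pseudogenes SLC7A5P1 and SLC7A5P2, whose reads may be split with SLC7A5. Exons of SLC7A5 share 271 bases with an antisense gene. A further partner of SLC3A2, the light chain SLC7A6 (y+LAT2), had 3.73, 6.16 and 6.48 CPM in controls and 5.28, 5.26 and 5.54 CPM in shUSP39 libraries, which overlap. Its log2 fold change was -0.02 (95% interval -0.42 to 0.37, adjusted p = 0.944, edgeR), and its exons share 3372 bases with SLC7A6OS on the other strand.

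The 250 bases before a start site of SLC3A2 (chr11:62881449-62881698, plus strand) and of SLC7A5 (chr16:87869508-87869757, minus strand) are shown because these genes encode the subunits of 1 exchanger and both rose. The sequences are from RefSeq on GRCh38.p14, written 5′ to 3′ on the strand of the gene, and for SLC3A2, which has several, the window listed first was taken. Capitals mark a match to TGACNNNGC, the letters of the antioxidant response element, which here include TGACTCA, the letters of an AP-1 site.
SLC3A2: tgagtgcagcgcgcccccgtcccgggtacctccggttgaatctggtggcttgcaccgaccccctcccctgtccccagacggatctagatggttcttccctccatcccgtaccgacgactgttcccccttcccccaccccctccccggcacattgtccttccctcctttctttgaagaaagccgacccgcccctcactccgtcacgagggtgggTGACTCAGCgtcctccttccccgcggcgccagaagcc
SLC7A5: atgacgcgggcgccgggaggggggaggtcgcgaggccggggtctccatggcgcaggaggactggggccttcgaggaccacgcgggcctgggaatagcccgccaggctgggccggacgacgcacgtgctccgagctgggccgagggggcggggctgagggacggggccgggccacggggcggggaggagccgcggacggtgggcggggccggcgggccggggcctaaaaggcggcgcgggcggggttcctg
The match in SLC3A2 starts 37 bases before the start site, and the SLC7A5 window holds none. The other windows of SLC3A2, at further start sites, held no match either. On either strand these letters were found in 5 of 57 windows of 38 transporter genes (8.77%) and in 3830 of 35116 windows of all genes (10.9%). TGATGNAAN, the letters of the C/EBP-ATF response element, were found in 2 of 57 (3.51%) and 1100 of 35116 windows (3.13%), and in neither window shown. Windows of the other 14 transporters, SLC7A11 among them, were not analysed here. A match of letters is a description and not a bound site.

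SLC3A2 was counted as 3 transcript rows, whose estimated changes differed, and how reads shared by the rows were handled is not stated. Row NM_001013251.2 had 997, 914 and 762 counts in the controls and 1605, 1479 and 1648 in shUSP39 libraries, a log2 change of 0.84 (SE 0.078, adjusted p = 5.1e-09, edgeR on transcript rows). Row NM_002394.5 had a log2 change of 0.36 (SE 0.102, adjusted p = 0.009), and NM_001012662.2 had 0.25 (SE 0.156, adjusted p = 0.267). The first row therefore held 58.7% ± 2.96 of the gene's counts in pGIPZ-NC and 67.1% ± 0.738 in shUSP39 cells (SD, n = 3). The shares of this row did not overlap between the groups, but the test of transcript usage (edgeR's diffSpliceDGE) gave an adjusted p of 0.511. None of 8 transporter genes with at least 2 tested rows passed that test, against 2.15% of 1628 genes, and 1 of the 8 had an unadjusted p under 0.05.

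**Figure D2:**
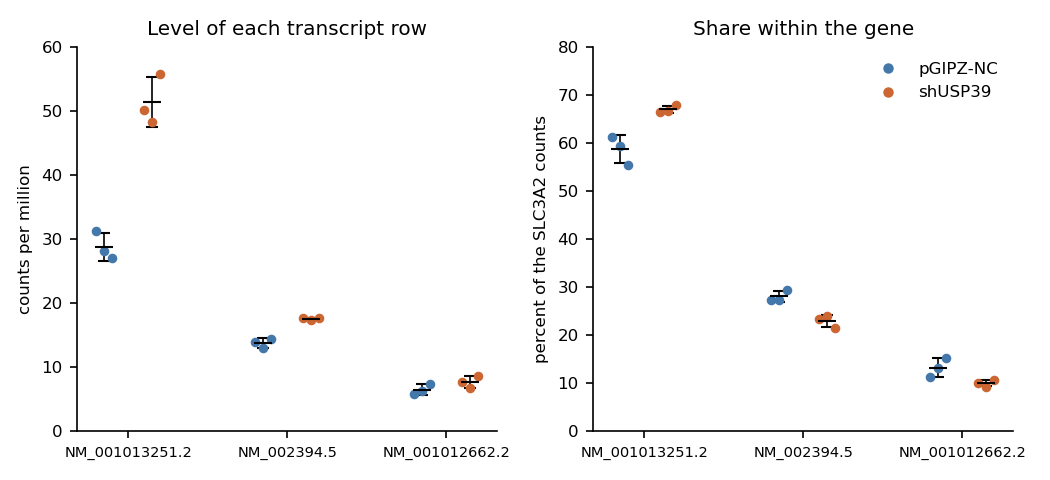
The 3 transcript rows of SLC3A2. The y axis of the left panel is CPM and that of the right panel the percent of the gene's counts; circles are libraries, and the bars give the mean and SD of 3 libraries per group. The share of NM_001013251.2 was 58.7% in pGIPZ-NC and 67.1% in shUSP39 cells, while the shares of the other rows were lower in shUSP39 cells.

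SLC1A5 and SLC1A4, the neutral amino acid exchangers of the SLC1 family, both rose. SLC1A5, the glutamine exchanger ASCT2 (chr19:47278140-47291851, minus strand, GRCh37), had 372, 385 and 384 CPM in the controls and 453, 467 and 496 CPM in shUSP39 libraries. The groups did not overlap, and the log2 fold change was 0.31 (SE 0.037, adjusted p = 1.8e-07, edgeR). Exons of SLC1A5 share 780 bases with an antisense gene. SLC1A4 (ASCT1), which carries serine and alanine, had 30.1, 33.5 and 35.7 CPM in the controls and 47.8, 45.7 and 45.4 CPM in shUSP39 libraries. This was a log2 change of 0.48 (SE 0.075, adjusted p = 1.1e-05, edgeR). The glutamate transporters of the same family were little counted. SLC1A1 (EAAC1) had 8, 17 and 13 counts in the controls and 0, 15 and 19 in shUSP39 libraries (adjusted p = 0.915, edgeR), and SLC1A2, SLC1A3, SLC1A6 and SLC1A7 had 0 counts in every control and at most 2 in a shUSP39 library.

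SLC38 transporters move glutamine and other neutral amino acids with sodium, at the surface or out of the lysosome. Of the 9 that were tested, 3 rose (33.3%), 1 fell (11.1%) and 5 did not pass, beside 16.1% and 17.5% of all genes tested. SLC38A10 had 58.8, 59.3 and 61.8 CPM in the controls and 72.6, 79.4 and 76.8 CPM in shUSP39 libraries, a log2 change of 0.35 (SE 0.060, adjusted p = 4.2e-05, edgeR). Its exons share 610 bases with an antisense gene. The glutamine transporter SLC38A1 (SNAT1) had 20.2, 21.8 and 22.1 CPM against 26.2, 30.2 and 27.7 CPM, a log2 change of 0.39 (SE 0.088, adjusted p = 9.4e-04, edgeR). The call on SLC38A1 was lost when only its highest transcript row, NM_001278387.1, was taken (adjusted p = 0.151, edgeR). The log2 fold change was 0.20 for that row and 0.68 for NM_001278390.1. The test of transcript usage for SLC38A1 gave an adjusted p of 0.993 (diffSpliceDGE). SLC38A7, a lysosomal glutamine and asparagine exporter, had 18.4, 20.8 and 17.2 CPM against 23.0, 23.4 and 24.9 CPM. Its log2 fold change was 0.33 (SE 0.095, adjusted p = 0.007, edgeR), and without pGIPZ-NC replicate 3 the adjusted p was 0.0505. SLC38A10, SLC38A1 and SLC38A7 each had all shUSP39 libraries above all controls.

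SLC38A2, the glutamine carrier that is induced when amino acids run short, was among the most abundant transporters. It had 99.6, 96.0 and 93.7 CPM in the controls and 106, 99.9 and 93.3 CPM in shUSP39 libraries. The groups overlapped, and the log2 fold change of 0.05 had a 95% interval of -0.07 to 0.16 (adjusted p = 0.555, edgeR). The upper bound of 0.16 was below the lower 95% bounds for SLC38A1 (0.21) and SLC38A10 (0.22), but above that for SLC38A7 (0.14). Under upper-quartile scaling the estimate for SLC38A2 was 0.09. SLC38A9, the lysosomal arginine sensor of mTORC1, had 2.04, 1.72 and 1.10 CPM in the controls and 2.78, 2.55 and 1.96 CPM in shUSP39 libraries, which overlap. A log2 fold change of 0.58 (95% interval -0.02 to 1.18, adjusted p = 0.134, edgeR) was not distinguishable from none at this depth.

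SLC38A4 (SNAT4; chr12:47158544-47226191, minus strand, GRCh37), known for its high level in liver, fell. It had 75, 103 and 95 counts in the controls and 60, 44 and 18 in shUSP39 libraries, or 2.35, 3.17 and 3.36 CPM against 1.87, 1.44 and 0.609 CPM. All shUSP39 libraries were below all controls but spread widely, and the log2 fold change was -1.17 (SE 0.320, adjusted p = 0.005, edgeR). The fall was beyond 2-fold only with shUSP39 replicate 3: without that library the log2 fold change was -0.83 (adjusted p = 0.037). Without both shUSP39 replicates 2 and 3, the libraries whose counts were spread over more genes, it was -0.66 (adjusted p = 0.237).

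**Figure D3:**
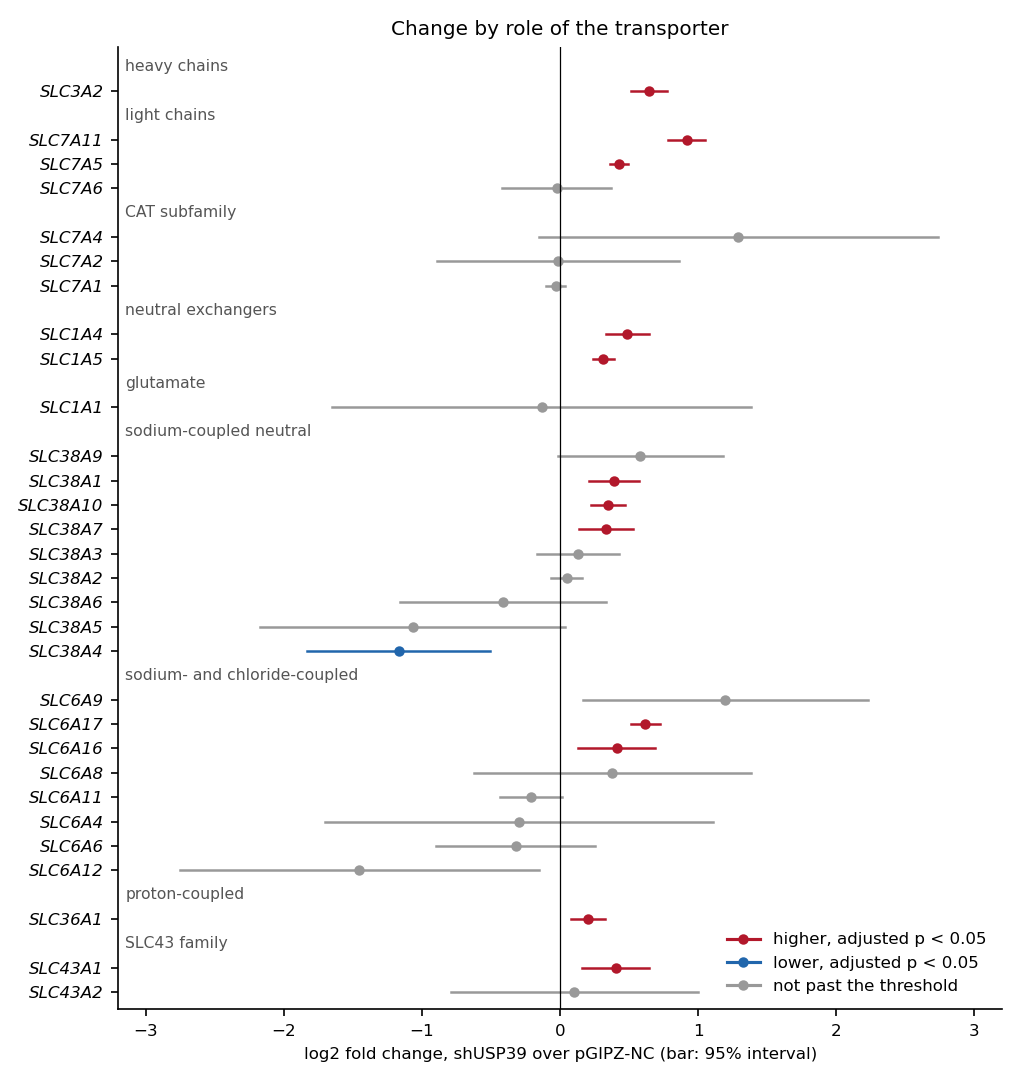
Log2 fold change of 30 tested transporters, grouped by role. The x axis is the log2 fold change of shUSP39 over pGIPZ-NC, circles are estimates and bars their 95% intervals; red and blue mark genes with an adjusted p under 0.05. SLC6A15, which had 0 counts in shUSP39 libraries, is left out. SLC7A11 at 0.92 is farthest to the right of the red genes, and SLC38A4 at -1.17 is the blue one.

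SLC6 transporters use sodium and chloride and carry neurotransmitters, creatine, taurine and amino acids. Of 17 genes, 9 were tested, 2 rose (22.2%), 1 fell (11.1%) and 6 did not pass, shares near the 16.1% and 17.5% of all genes tested. SLC6A17 (NTT4), a neutral amino acid transporter of synaptic vesicles (chr1:110693116-110744824, plus strand, GRCh37), had 89.4, 98.0 and 89.7 CPM in the controls and 138, 146 and 141 CPM in shUSP39 libraries. The lowest shUSP39 library was far above the highest control, and the log2 fold change was 0.62 (SE 0.051, adjusted p = 2.4e-10, edgeR). Its exons share 489 bases with the antisense gene SLC6A17-AS1. SLC6A16 (NTT5), a member without an assigned substrate, had 8.47, 7.79 and 9.74 CPM against 12.8, 11.6 and 10.1 CPM. The groups did not overlap, and the log2 fold change was 0.41 (SE 0.136, adjusted p = 0.020, edgeR). This call was lost without pGIPZ-NC replicate 1 (adjusted p = 0.0562) or 2 (0.108) and without shUSP39 replicate 1 (0.108) or 2 (0.0559).

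SLC6A15 (B0AT2), a carrier of branched-chain amino acids and proline known from neurons (chr12:85253270-85307408, minus strand, GRCh37), had 33, 30 and 18 counts in the controls and 0 in all 3 shUSP39 libraries. With a floor of 3 counts per library it was at least 8.86-fold lower in shUSP39 cells, a bound that covers counting error only (adjusted p = 8.6e-06, edgeR). The gene passed the filter through the controls alone, and was not tested where at least 10 counts were required in every library. The controls averaged 0.865 ± 0.205 CPM. A low count in this table need not mean a low level, since broadly used genes such as SHMT2 (0 counts in every control) and TSC2 (3, 1 and 3 counts) were also near 0.

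Several other SLC6 genes differed in their estimates without passing. The GABA transporter SLC6A11 (GAT3) had 14.8, 17.6 and 14.7 CPM against 13.2, 13.4 and 14.1 CPM, with a log2 change of -0.21 (SE 0.110, adjusted p = 0.149, edgeR). It did pass when only its highest transcript row, NM_014229.2, was taken (log2 fold change -0.44, adjusted p = 0.023, edgeR). The other row, NM_001317406.1, had a log2 fold change of 0.05 (adjusted p = 0.875, edgeR on transcript rows). The test of transcript usage for SLC6A11 gave an adjusted p of 0.958 (diffSpliceDGE). The glycine transporter SLC6A9 (GLYT1) had 15, 12 and 8 counts against 29, 27 and 24, which do not overlap (log2 fold change 1.196, SE 0.502, adjusted p = 0.069, edgeR). Its exons share 413 bases with CCDC24 on the other strand. The betaine carrier SLC6A12 (BGT1) had 11, 26 and 16 counts against 7, 8 and 4 (-1.46, SE 0.632, adjusted p = 0.079, edgeR). The taurine transporter SLC6A6, the creatine transporter SLC6A8 and the serotonin transporter SLC6A4 had adjusted p-values of 0.418, 0.602 and 0.787. Their intervals were wide at 2 to 85 counts per library.

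Cationic amino acids enter through the CAT subfamily of SLC7, where 0 of 3 tested members passed with edgeR, with the DESeq2 Wald test or at an unadjusted p under 0.05. SLC7A1 (CAT1; chr13:30083551-30169825, minus strand, GRCh37) had 453, 459 and 460 CPM in the controls and 450, 448 and 445 CPM in shUSP39 libraries. The shUSP39 libraries were all just below the controls, but the log2 fold change was -0.03 (95% interval -0.10 to 0.04, adjusted p = 0.521, edgeR), and upper-quartile scaling turned its sign. At this depth a change beyond 0.10 in either direction lay outside the interval. SLC7A2 (CAT2) had 23 to 40 counts in the controls and 22 to 37 in shUSP39 libraries, and SLC7A4 had 1 to 8 against 12 to 14 (adjusted p = 0.985 and 0.170). SLC7A4 shares 1803 exon bases with another gene on its own strand, so its few reads are uncertain.

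The other families each had 1 gene that passed. SLC36A1 (PAT1), which exports small amino acids from the lysosome with protons, had 74.96, 70.8 and 79.7 CPM in the controls and 89.6, 88.2 and 81.5 CPM in shUSP39 libraries. The log2 fold change was 0.20 (SE 0.059, adjusted p = 0.009, edgeR), and without pGIPZ-NC replicate 2 the adjusted p was 0.090. SLC43A1 (LAT3), a carrier of large neutral amino acids that needs no heavy chain, had 12.2, 10.4 and 10.98 CPM against 13.5, 15.8 and 15.1 CPM. This was a log2 change of 0.40 (SE 0.116, adjusted p = 0.008, edgeR), with an adjusted p of 0.0502 without pGIPZ-NC replicate 2 and 0.0503 without shUSP39 replicate 2. In both genes the shUSP39 libraries lay above all controls. SLC43A2 (LAT4) had 40, 29 and 21 counts against 25, 20 and 50, which overlap (adjusted p = 0.887, edgeR). The remaining tested genes, SLC38A3, SLC38A5 and SLC38A6, had adjusted p-values of 0.531, 0.134 and 0.419.

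The 21 transporters that were not tested had at most 10 counts in a pGIPZ-NC and at most 12 in a shUSP39 library. Of these, 5 had counts in both groups: SLC3A1, SLC38A8, SLC6A13, SLC6A14 and SLC7A10. The other 16 had 0 counts in all 3 controls, and of these 3 were seen in shUSP39 replicate 1, all 16 in its second replicate and 9 in the third. The intestinal and renal carriers SLC6A19 (0, 10 and 2 counts in shUSP39 replicates 1 to 3) and SLC6A18 (0, 6 and 12), the dopamine transporter SLC6A3 (4, 11 and 5), the proline transporter SLC6A7 (0, 11 and 2) and the light chain SLC7A8 (0, 10 and 2) were of this kind. So were SLC7A14 (0, 11 and 6) and SLC36A2 (1, 8 and 5). Over all 2773 genes at 0 in the 3 controls, the share with a count was 12.01% for shUSP39 replicate 1, 82.1% for the second replicate and 67.2% for the third. The low counts of these transporters thus moved with the 2 libraries in which more genes had a count, and the part of those libraries in these counts was not tested further. The 16 transporters at 0 in the controls were not tested, so their absence from the 12 that rose was fixed by the filter. The lowest control count among the 12 was 253, in SLC6A16. An alternative chosen after seeing the data set only shUSP39 replicate 1 against the 3 controls, and assumed that this library varies like the controls. There SLC38A1, SLC38A7 and SLC43A1 had lower log2 fold changes than with all libraries (0.29, 0.29 and 0.27). Those of SLC36A1 and SLC1A4 were higher (0.25 and 0.53). The part of the other 2 shUSP39 libraries in the 12 rises was not tested.

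**Figure D4:**
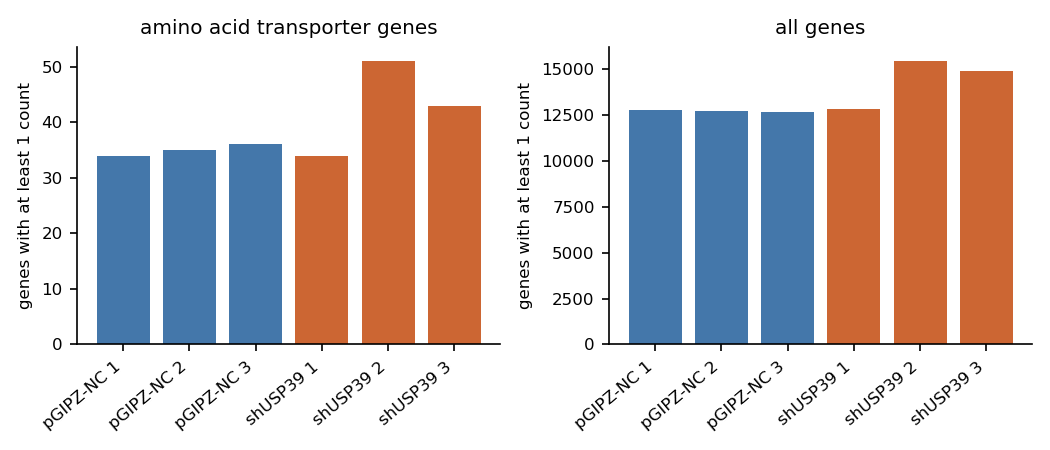
Genes with at least 1 count in each library, for the 52 amino acid transporters (left) and for all genes (right). Bars start at 0 and the 6 libraries are named below them. The 34 transporters with a count in shUSP39 replicate 1 were like the 34 to 36 in the controls, while shUSP39 replicates 2 and 3 had 51 and 43.

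Genes around these transporters were read from 4 lists. Of 25 other amino acid transporters and carriers in the table, 18 were tested, of which 7 rose (38.9%, beside 16.1% of all genes tested) and 2 fell (11.1%, beside 17.5%), with a median log2 fold change of 0.17. The mitochondrial aspartate-glutamate carrier SLC25A12 fell, from 11.8 ± 1.73 to 7.55 ± 0.699 CPM (log2 fold change -0.64, SE 0.140, adjusted p = 6.8e-04, edgeR). The lysosomal exporter of cationic amino acids PQLC2 (SLC66A1; 11.2 ± 3.51 to 16.3 ± 1.34 CPM), the vesicular glutamate transporter SLC17A7 (18.4 ± 1.17 to 24.99 ± 4.30 CPM) and the mitochondrial glutamate carrier SLC25A22 (16.6 ± 0.837 to 22.3 ± 0.854 CPM) rose, with log2 fold changes of 0.54, 0.44 and 0.42. The count of 7 fell to 4 without pGIPZ-NC replicate 3.

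The amino acid response list holds the kinase GCN2 (EIF2AK4), its partners and genes known as targets of the factor ATF4. Whether ATF4 had a part in the changes of the transporters or of this list was not tested. Of 15 tested genes 9 rose (60%, beside 16.1% of all genes tested) and 3 fell (20%, close to the 17.5% of all genes tested), with a median log2 fold change of 0.44. The list was chosen with earlier results of these data known. STC2, a secreted glycoprotein induced by cell stress, rose from 63.8 ± 3.38 to 174 ± 0.559 CPM (log2 fold change 1.45, SE 0.051, adjusted p = 3.9e-18, edgeR). PPP1R15A (GADD34), which restores translation after eIF2α phosphorylation, rose from 60.4 ± 1.11 to 132 ± 5.16 CPM, and the glutathione-degrading enzyme CHAC1 from 4.74 ± 0.849 to 10.3 ± 1.12 CPM. The stress cytokine GDF15 went from 3.53 ± 0.557 to 8.19 ± 0.207 CPM. MYC was counted among the 9, though it is on the list as a regulator of transporters rather than as an ATF4 target. Its log2 fold change was 0.44 (SE 0.034). The 3 genes that fell were the GCN2 activator GCN1 (log2 fold change -0.72, SE 0.032), EIF2AK4 itself (-0.34, SE 0.034) and EIF2S1, which encodes eIF2α (-0.15, SE 0.033). The mRNA of ATF4, whose activity is largely set at translation, had 19.2 ± 0.525 and 19.3 ± 0.445 CPM (log2 fold change 0.01, adjusted p = 0.936, edgeR).

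Of 31 tested genes of amino acid sensing by mTORC1, 3 rose and 5 fell, with a median log2 fold change of -0.02. These shares, 9.68% and 16.1%, were at or below the 16.1% and 17.5% of all genes tested. The leucine sensor SESN2 rose from 45.9 ± 1.90 to 90.5 ± 1.16 CPM (log2 fold change 0.98, SE 0.059, adjusted p = 4.7e-13, edgeR) and the GTPase RRAGD from 86.1 ± 4.23 to 139 ± 1.83 CPM. The arginine sensor GATSL3 (CASTOR1) fell from 18.3 ± 1.84 to 10.1 ± 1.57 CPM, and the kinase MTOR from 350 ± 5.23 to 262 ± 5.83 CPM (log2 fold change -0.42, SE 0.036). Upper-quartile scaling gave 6 that rose and 3 that fell, and 3 fell without shUSP39 replicate 2. Of 25 tested genes of amino acid synthesis and use, 5 rose and 5 fell (20% each, near the 16.1% and 17.5% of all genes tested), with a median log2 fold change of 0.03. The creatine-forming enzyme GAMT fell from 75.4 ± 3.04 to 37.6 ± 2.60 CPM (log2 fold change -1.004, SE 0.067, adjusted p = 3.6e-12, edgeR) and the arginase ARG2 from 67.1 ± 2.84 to 55.9 ± 1.64 CPM. GCLC and GCLM, the subunits of the first enzyme of glutathione synthesis, which uses the cysteine that SLC7A11 supplies, rose with log2 fold changes of 0.39 (SE 0.115) and 0.36 (SE 0.121). Upper-quartile scaling left 3 that fell, and without shUSP39 replicate 2 there were 3 that rose.

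**Figure D5:**
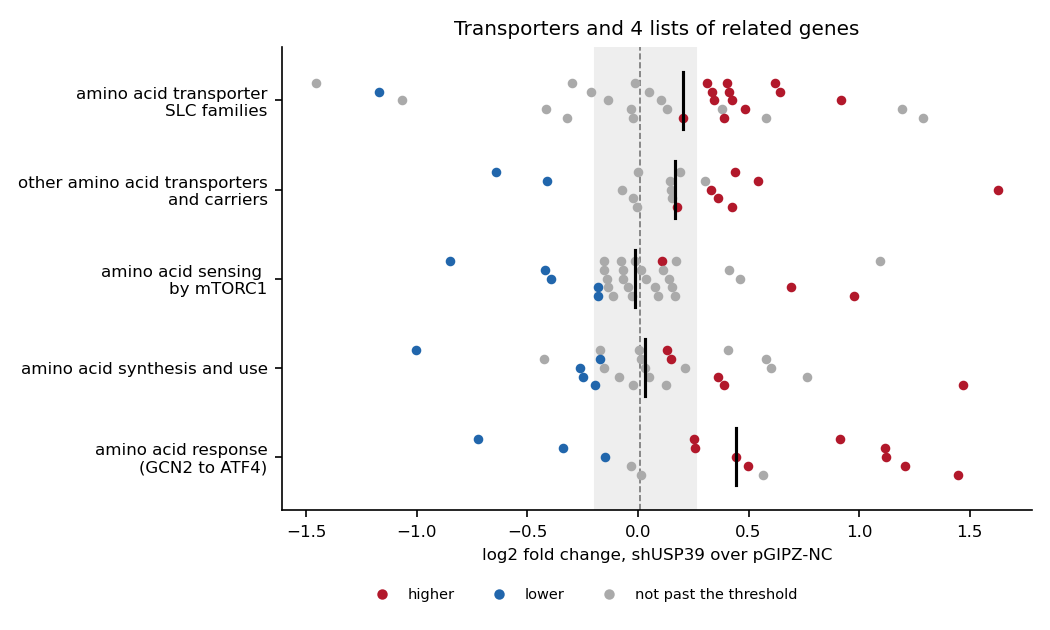
Log2 fold changes of the transporters and of 4 lists of related genes. Each circle is a tested gene (SLC6A15 is left out), its place on the x axis is the log2 fold change of shUSP39 over pGIPZ-NC, and black lines are list medians. The grey band and dashed line give the quartiles (-0.20 and 0.26) and median (0.01) of all genes tested. The medians are 0.20 for the transporters, 0.17, -0.02 and 0.03 for the next 3 lists and 0.44 for the amino acid response.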

How the data were processed

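Total RNA was extracted with Trizol, and how it was selected for the libraries is not given in the sources used here. The authors deposited 1 table of raw read counts per RefSeq transcript for 6 libraries. The submitters' processing notes name HISAT2, Cufflinks and hg19, while the counter, use of strand and handling of shared reads are not stated. Deposited columns of the authors' own comparison (group signals, fold change, p-value, q-value) were not used. Groups and replicate numbers came from the labels.

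Counts of 21368 rows were summed to 16571 symbols, after 46 date-like symbols were replaced through their accessions and 1 was kept. Depth was 28294819 to 32939264 counts per library. After the filterByExpr filter and TMM scaling (factors 0.986 to 1.01), genes were tested with edgeR 4.0.16 in R 4.3.3 (robust quasi-likelihood, group as the only term, Benjamini-Hochberg over 10695 genes). CPM values use these scaled library sizes, standard errors are |log2 fold change| over the root of F, and transcript usage was tested with diffSpliceDGE. On simulated data of 10695 genes, 94% of genes changed by 1 on the log2 scale and 100% of those changed by 2 were recovered, with 14 false calls. The simulation used the same spread for every gene and no change under 2-fold. It also left out the extra low counts of shUSP39 replicates 2 and 3. Its rates therefore do not carry over to the rises under 2-fold found here. Coordinates, lengths and overlaps came from GENCODE mapped to GRCh37, with an entry for 52 of 52 transporters, and promoter windows from RefSeq on GRCh38.p14. Figures were drawn with matplotlib 3.10.9.

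Every gene chosen by symbol was accounted for. Values of every library were given for members with an adjusted p under 0.05 and a mean of at least 1 CPM in either group, for the 5 of highest mean CPM and for SLC3A2, SLC7A5, SLC7A11, SLC1A5, SLC38A2 and SLC38A9. From each of the 4 other lists, up to 4 genes past the threshold with at least 5 CPM and the largest changes were named. Other named genes were chosen after their values were seen. The members, lists and tests were chosen with earlier results of these data known. The submitters call the replicates biological, and p-values measure the spread between these libraries. Alternatives were DESeq2 1.42.0 size factors and Wald test, upper-quartile scaling, other count filters, the highest transcript row per gene, the replicate number as a block, and each library left out in turn.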

Additional observations from a re-analysis of the deposited data

How the results depend on the processing

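Of the 14 transporters past the threshold, 9 stayed past it under every alternative that tested them (1 was chosen after seeing the data and is given apart), none changed sign, and 13 were tested in all 13. The number that rose was 11 to 15 under the alternatives that kept all libraries and 9 to 12 when 1 library was left out. With at least 10 counts required in every library 1 transporter fell, also beyond 2-fold, because SLC6A15 was then not tested. With no filter 3 transporters rose beyond 2-fold (SLC6A3, SLC6A18 and SLC7A14), each at 0 counts in the controls. The number that fell beyond 2-fold was 1 to 2 when 1 library was left out.

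Leaving out 1 library gave 4 to 8 rises among other transporters and carriers, 3 to 5 falls in mTORC1 sensing and 3 to 5 rises in synthesis and use. Under upper-quartile scaling 6 genes of mTORC1 sensing rose and 3 fell, and 3 of synthesis and use fell; the scaling shifts every gene by the same amount. Without shUSP39 replicates 2 and 3, chosen after seeing the data, the lone shUSP39 library was assumed to vary like the controls. There 3 transporters fell (SLC6A15, SLC1A1 and SLC38A5), 2 other transporters and carriers rose and 1 fell, 2 genes of mTORC1 sensing fell, and 1 gene of synthesis and use rose and 3 fell.

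Correlations of deviations from group means were 0.069, 0.005 and 0.022 for libraries of the same replicate number and -0.052 to 0.030 for unlike numbers. All were small, and the highest was that of the replicate 1 libraries. With the number as a replicate block, 12 transporters rose and 2 fell, as without it, 4 genes of mTORC1 sensing rose and 6 fell, and 0 transporters passed the usage test.

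The sign turned in 8 transporters that did not pass. Under upper-quartile scaling SLC7A1 had a log2 fold change of 0.0134, SLC7A2 of 0.0296 and SLC7A6 of 0.0203, and SLC7A6 had 0.00652 with the replicate block. With 1 library left out the range was -0.75 to 0.45 for SLC1A1, -0.00124 to 0.0931 for SLC38A2, -0.0333 to 0.26 for SLC38A3, -0.43 to 0.35 for SLC43A2, -0.70 to 0.19 for SLC6A4, -0.30 to 0.25 for SLC7A2 and -0.24 to 0.11 for SLC7A6. SLC43A2 had -0.31 without shUSP39 replicates 2 and 3. The cause of these turns was not tested. Intervals spanned more than 1 on the log2 scale for genes of few counts and also for SLC6A6 (45 to 85 counts per library) and SLC38A4 (18 to 103), and the part of depth in this was not tested.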
